A study of Oryza sativa with 15 samples.

Results

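The T4 rice line pOsNAR2.1-OsNAR2.1 was compared with SDWT (labelled FP), the T4 wild type that segregated from the same regenerated plant without the transgene. The regions described are the differentially methylated regions (DMRs) that the deposited lists of both lines hold with the same chromosome, start, end and sequence context. There were 276 such regions, which were 10.1% of the 2731 regions listed for SDWT and 7.80% of the 3539 listed for pOsNAR2.1-OsNAR2.1, and the 3 lists of the series held 11392 regions. Each list had been called against the same 3 libraries of the untransformed cultivar Wuyunjing7 (WYJ7), so the regions were chosen by measured levels, and their distance from WYJ7 is a description that was not tested.

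Whole-genome bisulfite sequencing (WGBS) measured methylation in shoots of 10-day-old seedlings grown in water, with 3 libraries each of WYJ7, SDWT, pOsNAR2.1-OsNAR2.1 and CK, T0 plants regenerated from WYJ7 callus without transformation. SDWT and pOsNAR2.1-OsNAR2.1 share the callus culture, the Agrobacterium transformation with hygromycin selection and the later selfing to T4, and their T1 parents came from one heterozygous T0 plant. They differ by the insertion, which carries OsNAR2.1 behind its own promoter. Each is a single line, so the insertion cannot be told apart from any other difference that segregated between those T1 plants, and the sources do not make clear whether the 3 libraries of a line came from separate plants. The p-values therefore measure the spread between libraries, which may be technical.

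In plants a methyl group is placed on cytosines by maintenance and de novo methyltransferases. Methylation at CG sites is copied onto the new strand after each round of replication, so that a gain or a loss can pass through mitosis and meiosis and be inherited as an epiallele. The product of OsNAR2.1 pairs with NRT2 nitrate transporters of rice and is needed for their function at the root membrane.

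The shared regions were short. They had a median width of 18 bp (lower and upper quartiles 13 and 26 bp, range 6 to 116 bp) and covered 5960 bp together, while the median width was 20 bp in the SDWT list and 28 bp in the pOsNAR2.1-OsNAR2.1 list. The context was CpG in 274 regions and CpH, a cytosine followed by another base than G, in 2. The lists gave 3 or 4 CpGs for 223 regions (80.8%), and 4 regions had at least 10. One strand of a region of 6 bp can hold at most 3 CpGs, and a shared region of that width was listed with 4, so the number counts cytosines of both strands. Levels are the mean over these few cytosines, in percent, and the read depth behind them is unknown.

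By mean level the regions fell into 4 classes. In 153 regions (55.4%) both lines were higher than WYJ7, and in 52 (18.8%) both were lower. In 54 regions (19.6%) SDWT was lower and pOsNAR2.1-OsNAR2.1 was higher than WYJ7, and in 9 (3.26%) SDWT was higher and pOsNAR2.1-OsNAR2.1 lower. The lines thus lay on the same side of WYJ7 in 205 regions and on opposite sides in 63 (22.8%). The remaining 8 regions had a line less than 5 percentage points from the WYJ7 mean. Just inside this limit lay a region labelled up for OS09G0441250 (chr9:16361133-16361157), which was 6.05 points above WYJ7 in SDWT and 5.34 points above it in pOsNAR2.1-OsNAR2.1. Just outside it, an unannotated region (chr8:15239012-15239031) was 3.54 and 7.36 points above WYJ7 in the same order.

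**Figure D1:**
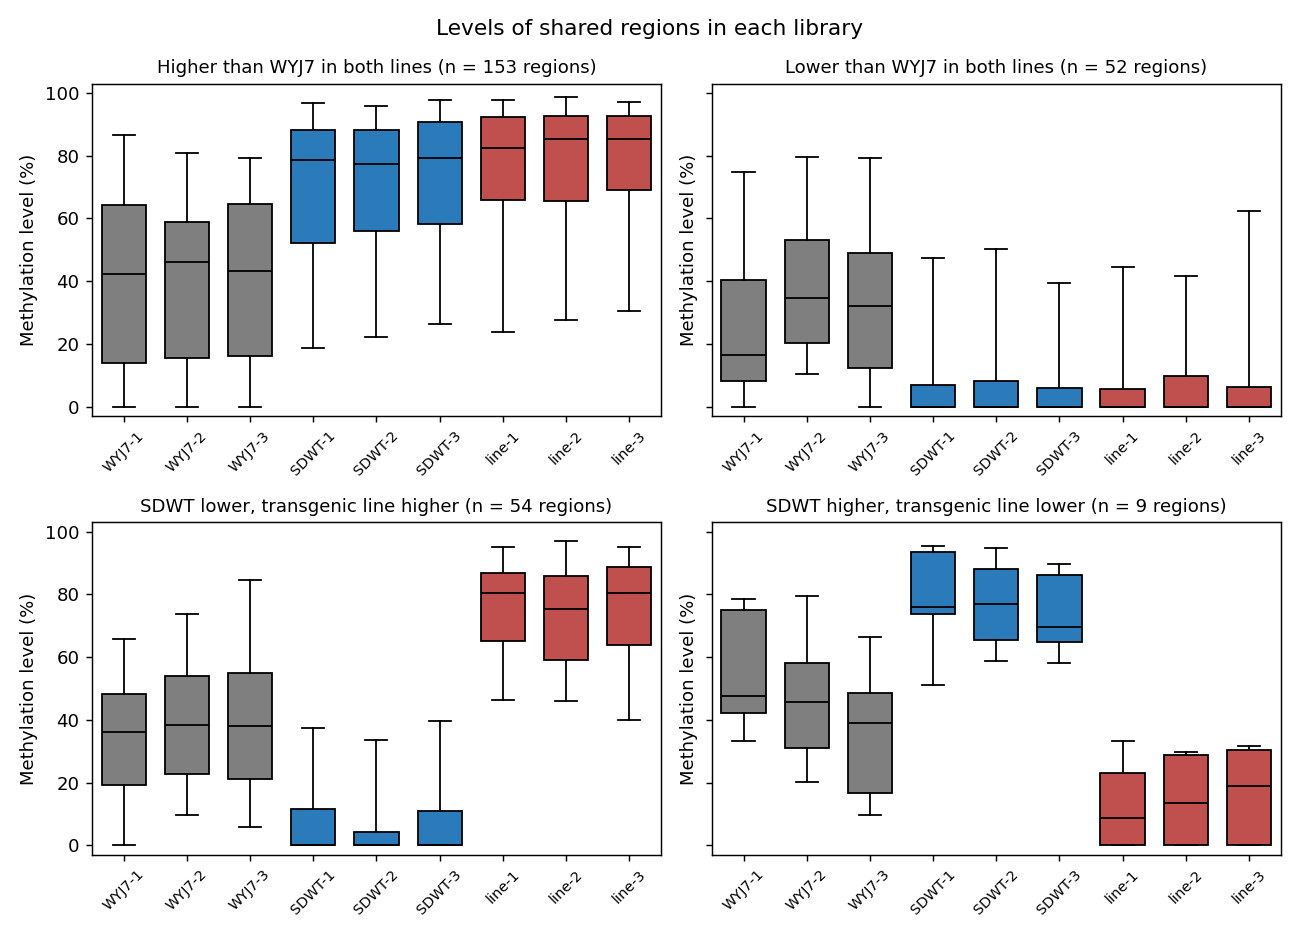
Box plots of the methylation level (%) of shared regions in each library, one panel per class, with WYJ7 in grey, SDWT in blue and pOsNAR2.1-OsNAR2.1 (line) in red; boxes span the quartiles, the black line is the median and whiskers reach from the 5th to the 95th percentile of regions. The medians of the 54 regions with SDWT lower were 0% for each SDWT library and between 75.4% and 80.6% for those of the transgenic line.

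The regions of opposite direction held the largest differences between the segregant and the transgenic line. In the 54 regions with SDWT lower, the median level of the regions was 36.3%, 38.5% and 37.9% in the WYJ7 libraries, 0% in each SDWT library, and 80.6%, 75.4% and 80.4% in those of pOsNAR2.1-OsNAR2.1. The mean was 37.8% ± 3.26 in WYJ7, 8.11% ± 1.46 in SDWT and 74.7% ± 1.72 in the line pOsNAR2.1-OsNAR2.1 (SD, n = 3 libraries). That WYJ7 lay between the lines follows from the definition of the class, and its level was intermediate. The 9 regions with SDWT higher had means of 45.6% ± 9.43 in WYJ7, 75.5% ± 2.15 in SDWT and 14.7% ± 2.22 in the line pOsNAR2.1-OsNAR2.1 (SD, n = 3 libraries). The choice of the regions fixes that the lines differ here, so these differences are a description and no p is given for them.

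The difference, pOsNAR2.1-OsNAR2.1 minus SDWT, had a median of 66.8 points in the 54 regions (quartiles 58.6 and 73.6, range 25.2 to 96.4) and of -61.0 points in the 9 (quartiles -65.8 and -52.1, range -74.1 to -47.0). It was at least 40 points in either direction in 60 of the 63 regions and at least 60 points in 42. SDWT was at 0% in all of its libraries in 25 of the 54 regions, and pOsNAR2.1-OsNAR2.1 was at 80% or more in all of its libraries in 14. In the 9 regions of the other direction, pOsNAR2.1-OsNAR2.1 was at 0% in all libraries in 3. The mean level in WYJ7 lay between 20% and 80% in 53 of the 63 regions (84.1%) and in 143 of the 205 regions of the same direction (69.8%). Opposite directions need room on both sides of WYJ7, so the definition of the class itself favours such levels. These shares are a description only.

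**Figure D2:**
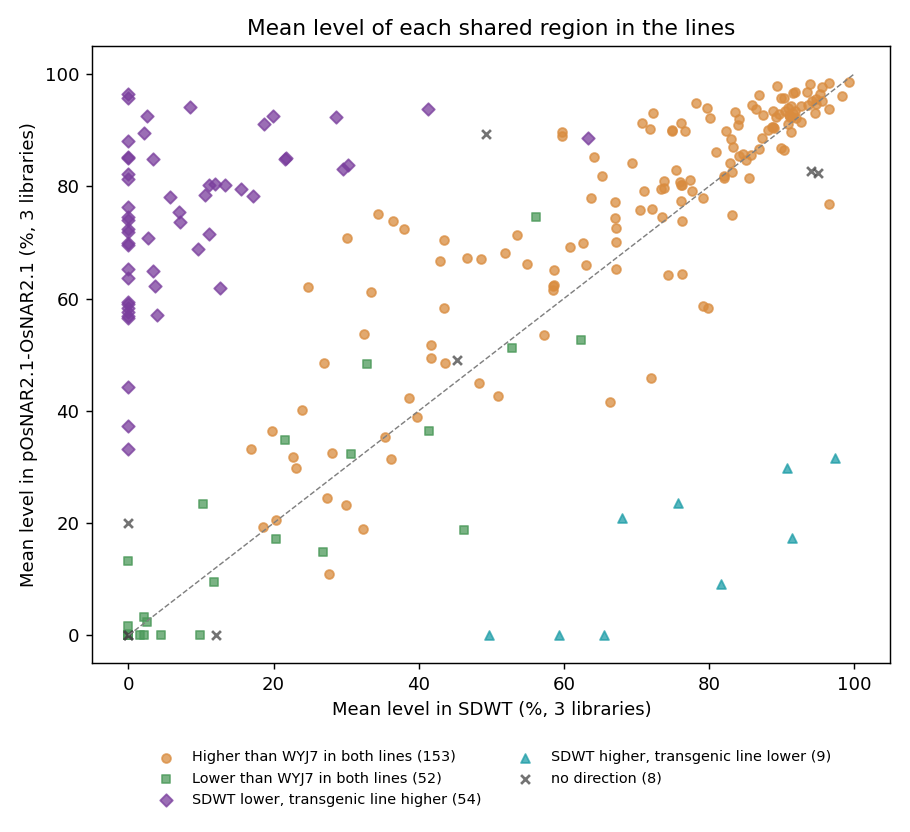
Mean methylation level (%) of each of the 276 shared regions, with SDWT on the x axis and pOsNAR2.1-OsNAR2.1 on the y axis, each over 3 libraries, with symbols for the classes and a dashed line of equal level. The 54 regions with SDWT lower lie along the left side with a median difference of 66.8 points, whereas the regions higher in both lines gather along the dashed line with a median difference of 3.69 points.

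The largest difference was at chr2:13316705-13316713 (IRGSP-1.0), labelled up for EPlOSAG00000044296, a label of the files that is read here as upstream of the gene. Its level was 0%, 0% and 0% in the SDWT libraries, 95.2%, 97.2% and 96.8% in pOsNAR2.1-OsNAR2.1, and 0%, 41.9% and 69.1% in WYJ7. The lines were thus at the ends of the scale, and WYJ7 ranged from the SDWT level to an intermediate one. At the unannotated region chr7:15285420-15285438 the levels were 0% in every SDWT library, 95.1%, 97.1% and 95.0% in pOsNAR2.1-OsNAR2.1, and 37.1%, 57.4% and 59.5% in WYJ7. Here no WYJ7 library overlapped either line.

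Upstream of OS10G0562000 (chr10:22169069-22169080) SDWT had 0%, 0% and 7.50%, pOsNAR2.1-OsNAR2.1 89.2%, 94.9% and 93.7%, and WYJ7 74.0%, 36.0% and 37.9%. Upstream of OS01G0868000 (chr1:37591686-37591692) SDWT had 6.50%, 0% and 0%, pOsNAR2.1-OsNAR2.1 93.2%, 87.7% and 87.8%, and WYJ7 49.7%, 67.5% and 32.4%. In both regions one SDWT library was above 0% and the others were listed at 0%, and all WYJ7 libraries lay between the lines. The region upstream of EPlOSAG00000038764 (chr5:2017656-2017667) had 12.8%, 0% and 12.5% in SDWT, 93.2%, 96.1% and 93.3% in the line pOsNAR2.1-OsNAR2.1, and 61.9%, 54.4% and 71.4% in WYJ7. Differences of 88.1, 85.3 and 85.0 points followed upstream of EPlOSAG00000000173 (chr8:26342013-26342036), at an unannotated region (chr8:7624796-7624809) and upstream of EPlOSAG00000039013 (chr11:5706317-5706324), with SDWT at 0% in every library of these 3.

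**Figure D3:**
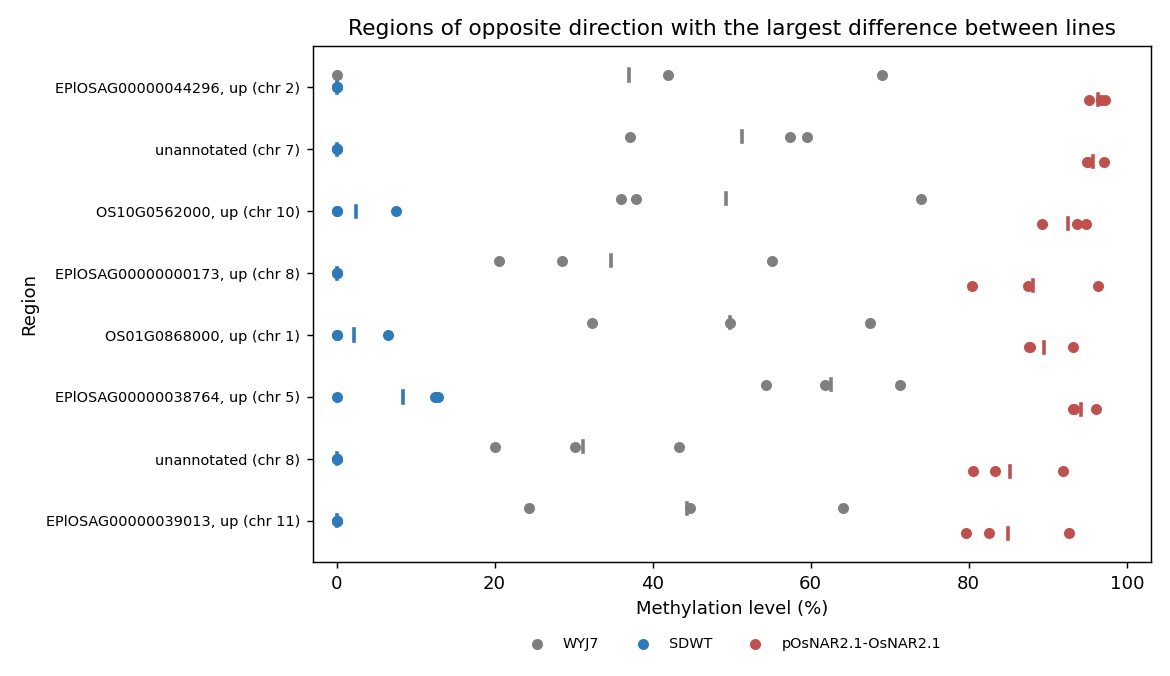
Methylation level (%) of the 8 regions of opposite direction with the largest difference, named by the annotated gene and chromosome, with one point per library and a bar at the mean of 3 libraries for WYJ7 (grey), SDWT (blue) and pOsNAR2.1-OsNAR2.1 (red). Every SDWT library lies at or below 12.8% and the differences between the lines run from 85.0 to 96.4 points.

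Of the 63 regions, 27 were labelled up, 4 exon and 3 introns, and 29 had no gene. The 7 gene-body regions all had SDWT lower, as did 54 of the 63 (85.7%). In an exon of OS02G0518000 (chr2:18824654-18824669) SDWT was at 0% in each library, pOsNAR2.1-OsNAR2.1 was at 71.0%, 72.5% and 72.0%, and WYJ7 was at 24.9%, 31.4% and 22.0%. The 3 groups did not overlap, and the libraries within each lay close together. In an exon of OS01G0257300 (chr1:8586421-8586434) SDWT had 0%, 0% and 59.8%, against 83.3%, 100% and 94.1% in pOsNAR2.1-OsNAR2.1 and 23.6%, 82.6% and 84.6% in WYJ7. SDWT replicate 3 thus stood apart from the other two, within the range of WYJ7. The introns of OS09G0279400 (chr9:5869358-5869365) held a region with 0% in each SDWT library, 84.1%, 80.9% and 81.5% in pOsNAR2.1-OsNAR2.1, and 0%, 41.5% and 18.0% in WYJ7. Introns of OS10G0457200 (chr10:16757216-16757224) and of OS08G0530801 (chr8:26438590-26438619) and exons of OS07G0471300 (chr7:16898511-16898521) and OS07G0491800 (chr7:18330613-18330624) held the other regions, with differences of 76.4, 59.4, 68.4 and 33.2 points.

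Among the 9 regions with SDWT higher, 3 were labelled up. Upstream of OS01G0583900 (chr1:22655488-22655513) SDWT had 76.1%, 55.8% and 64.9%, pOsNAR2.1-OsNAR2.1 had 0% in each library, and WYJ7 had 22.6%, 34.9% and 36.8%. Upstream of OS08G0154225 (chr8:3118648-3118664) the levels were 74.0%, 76.7% and 53.3% in SDWT, 23.1%, 13.5% and 26.4% in the line pOsNAR2.1-OsNAR2.1, and 33.3%, 79.5% and 9.72% in WYJ7. WYJ7 lay between the lines in the first of these regions and spread across both of them in the second.

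The third, upstream of EPlOSAG00000004955, had a second shared region 92 bp further on. At chr11:22638542-22638565 SDWT had 95.6%, 97.7% and 98.7%, pOsNAR2.1-OsNAR2.1 33.3%, 29.6% and 31.7%, and WYJ7 78.4%, 81.1% and 66.6%. At chr11:22638658-22638674 SDWT had 83.7%, 91.9% and 82.3%, pOsNAR2.1-OsNAR2.1 92.5%, 97.3% and 93.8%, and WYJ7 23.8%, 75.9% and 73.4%. The transgenic line was thus the lowest of the groups in the first region and the highest in its neighbour, and SDWT was above WYJ7 in both. Another pair of neighbours, 156 bp apart on chromosome 7 (chr7:4529584-4529597 and chr7:4529754-4529766), was higher than WYJ7 in both lines at both regions. In all, 4 pairs of shared regions lay within 5000 bp of each other.

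The next question was whether pOsNAR2.1-OsNAR2.1 and SDWT differ where both lie on the same side of WYJ7. In the 153 regions higher in both lines, the median level was 42.1%, 46.2% and 43.3% in the WYJ7 libraries, 78.8%, 77.2% and 79.2% in SDWT, and 82.5%, 85.5% and 85.4% in pOsNAR2.1-OsNAR2.1. The mean was 40.8% ± 0.326 in WYJ7, 70.1% ± 1.33 in SDWT and 75.6% ± 0.800 in the line pOsNAR2.1-OsNAR2.1 (SD, n = 3 libraries). The transgenic line was a few points above the segregant in the median of every pair of libraries. Region by region the difference had a median of 3.69 points (quartiles 0.17 and 9.38, range -26.1 to 40.7), and the transgenic line had the higher mean in 115 regions and the lower in 38. SDWT was at 80% or more in all its libraries in 50 of these regions, and pOsNAR2.1-OsNAR2.1 in 65.

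In the 52 regions lower in both lines, the median level was 0% in all 6 T4 libraries and 16.3%, 34.5% and 32.0% in the WYJ7 libraries. WYJ7 replicate 1 was the lowest of the WYJ7 libraries. SDWT had a mean of 8.39% ± 1.23 and pOsNAR2.1-OsNAR2.1 of 8.35% ± 1.40, against 32.8% ± 6.64 in WYJ7 (SD, n = 3 libraries). SDWT was at 0% in all of its libraries in 34 of the 52 regions and pOsNAR2.1-OsNAR2.1 in 36, and the mean levels of the lines were equal in 32.

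The direct comparison of the 3 SDWT with the 3 pOsNAR2.1-OsNAR2.1 libraries, by limma over the 205 regions of the same direction, called 0 regions at an FDR of 0.05 (0% of those tested). These regions were kept because the mean levels of both lines lie on the same side of WYJ7, which leaves out the 63 regions of opposite direction, in all of which the libraries of the lines did not overlap, and the counts hold for the kept regions only. The smallest adjusted p was 0.263 (limma, Benjamini-Hochberg), and 21 regions had an unadjusted p below 0.05, of which 16 were higher and 5 lower in pOsNAR2.1-OsNAR2.1. On the arcsine square root scale limma likewise called 0 regions, with 24 at an unadjusted p below 0.05. All 3 libraries of one line lay outside those of the other in 33 of the 205 regions (16.1%), with pOsNAR2.1-OsNAR2.1 above in 27 (13.2%) and below in 6 (2.93%). Over all 276 shared regions, the opposite directions included, this was so in 98 (35.5%). An exact permutation test of 3 libraries against 3 cannot give a p under 0.1, so no single region could pass 0.05 by it. The absolute difference of the means was under 10 points in 153 of the 205 regions, at least 20 points in 21 and at least 40 points in 2.

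The number of calls depended on what entered the fit. With all 276 regions in one fit limma called 66 (23.9%). Of these, 58 were regions of opposite direction, whose difference the choice of the regions fixes, and 7 were regions of the same direction. In fits of the 205 regions alone, limma called 2 with the WYJ7 libraries added, 1 without pOsNAR2.1-OsNAR2.1 replicate 2 and 2 without SDWT replicate 3.

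The 2 regions called with WYJ7 in the fit were also those with the smallest p in the direct comparison. That fit compares the same T4 libraries, and WYJ7, whose levels chose the regions, enters only its estimate of spread. The 2 calls thus carry no independent support. Upstream of OS10G0176700 (chr10:5288388-5288408) SDWT had 18.7%, 43.3% and 28.4%, pOsNAR2.1-OsNAR2.1 72.2%, 73.3% and 66.8%, and WYJ7 19.4%, 0% and 6.84%. The lines did not overlap, and one SDWT library fell within WYJ7. The difference was 40.6 points (SE 7.03, 95% interval 21.9 to 59.3, adjusted p = 0.263 by limma, and between 0.0171 and 0.558 over the alternatives). At the unannotated region chr2:26655053-26655070 the levels were 29.5%, 23.9% and 21.0% in SDWT, 49.9%, 73.3% and 62.9% in the line pOsNAR2.1-OsNAR2.1, and 0%, 0% and 7.91% in WYJ7. All 3 groups were apart, with the segregant between WYJ7 and the transgenic line, and the difference was 37.2 points (SE 6.85, adjusted p = 0.263 by limma, 0.0194 to 0.409 over the alternatives). In both regions the low end came from the fit of all shared regions, whose adjustment includes the fixed differences.

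Upstream of EPlOSAG00000038780 (chr4:28862255-28862278) SDWT had 35.0%, 41.9% and 37.0% and pOsNAR2.1-OsNAR2.1 65.0%, 66.0% and 85.9%. WYJ7 ranged there from 0% to 46.9% and overlapped SDWT alone. Upstream of OS10G0379233 (chr10:12180308-12180329), a region with 8 CpGs, the levels were 60.1%, 71.0% and 61.5% in SDWT, 87.9%, 88.5% and 79.4% in the line pOsNAR2.1-OsNAR2.1, and 37.6%, 26.3% and 10.5% in WYJ7. The 3 groups were apart and in the same order as at the chromosome 2 region. The introns of OS07G0212200 (chr7:6135849-6135875) and the region upstream of EPlOSAG00000009650 (chr11:8452729-8452735) had differences of 29.3 and 23.7 points, again with the transgenic line higher in every library. One of the 8 had SDWT higher. At the unannotated region chr5:3486266-3486282 SDWT had 9.52%, 13.6% and 6.25% and pOsNAR2.1-OsNAR2.1 0% in each library. None of the 8 differences passed the adjusted threshold of 0.05 in the direct comparison of the 205 regions. The 7 regions of the same direction called with all 276 regions in the fit were all among these 8 (adjusted p from 0.0171 to 0.0416 by limma, and from 0.0171 to 1 over the alternatives), and the remaining one, upstream of EPlOSAG00000009650, had 0.0575 there. That fit adjusts over the regions of opposite direction too, whose fixed differences lower the adjusted p of the others. Upstream of OS10G0176700 the unadjusted p was 0.00316 in the direct comparison and 0.00298 there (limma). These 7 calls thus carry no independent support.

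**Figure D4:**
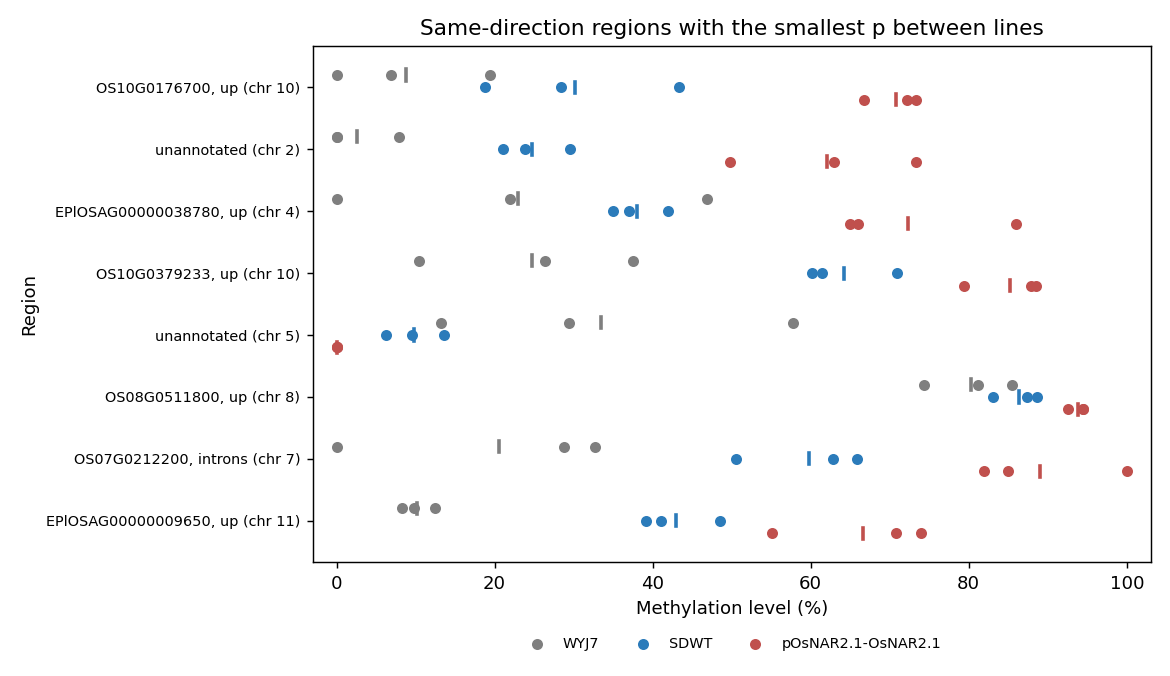
Methylation level (%) of the 8 regions of the same direction with the smallest p in the direct comparison, named by the annotated gene and chromosome, with one point per library and a bar at the mean of 3 libraries for WYJ7 (grey), SDWT (blue) and pOsNAR2.1-OsNAR2.1 (red). The lines do not overlap in any of the 8, pOsNAR2.1-OsNAR2.1 is the higher in 7, and the smallest adjusted p was 0.263 (limma).

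The regions farthest from WYJ7 in both lines differed by -10.2 to 13.2 points between pOsNAR2.1-OsNAR2.1 and SDWT. They were ranked by the distance of the line nearer to WYJ7. This ranking favours regions with both lines towards the same end of the scale, so small differences are partly fixed by it. The unannotated region chr6:30710414-30710440 was at 0% in each WYJ7 library, at 86.6%, 92.4% and 88.5% in SDWT and at 80.8%, 100% and 96.3% in the line pOsNAR2.1-OsNAR2.1. The unannotated region chr6:17181568-17181578 was also at 0% in each WYJ7 library, with 82.2%, 71.7% and 67.5% in SDWT and 74.2%, 80.4% and 88.1% in the line pOsNAR2.1-OsNAR2.1. In these regions the lines overlapped, and neither overlapped WYJ7. WYJ7 was at 0% in all libraries in 8 of the 153 regions higher in both lines. Next by distance were unannotated regions at chr7:20528604-20528613, chr10:13102476-13102493 and chr8:19896257-19896278, with differences between the lines of 1.02, -8.41 and -10.2 points.

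Of the regions lower in both lines, the one upstream of EPlOSAG00000035539 (chr6:24446263-24446278) had 53.0%, 42.3% and 47.0% in WYJ7 and 0% in all 6 T4 libraries. Unannotated regions at chr9:21940657-21940677, chr3:22402484-22402491 and chr8:5210045-5210052 were also at 0% in every T4 library, with WYJ7 means 46.6, 42.0 and 40.2 points above them. One of the WYJ7 libraries at the chromosome 9 region was at 0% too. Upstream of EPlOSAG00000027005 (chr4:102039-102051) the lines varied between libraries, with 34.0%, 22.0% and 8.84% in SDWT, 9.52%, 32.5% and 62.4% in the line pOsNAR2.1-OsNAR2.1, and 75.8%, 72.6% and 64.9% in WYJ7. In all, 34 shared regions were at 0% in the 6 T4 libraries, and 1 of them (chr2:12890561-12890578) was listed at 0% in all 9 libraries. The levels of that region hold no difference from WYJ7, although it is in the lists of both lines. A listed 0% therefore need not mean that methylation was absent, there or in other regions.

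Of the 4 regions with at least 10 CpGs listed, the 3 in the CpG context differed by under 10 points between the lines. Upstream of OS01G0828100 (chr1:35429972-35430072), listed with 23 CpGs in the SDWT list, SDWT had 95.3%, 91.6% and 87.5%, pOsNAR2.1-OsNAR2.1 94.5%, 92.2% and 90.3%, and WYJ7 74.5%, 58.5% and 72.5%. Upstream of OS10G0525400 (chr10:20433776-20433820), with 10 CpGs, SDWT had 57.6%, 50.2% and 50.8%, pOsNAR2.1-OsNAR2.1 49.5%, 49.6% and 54.4%, and WYJ7 74.9%, 72.5% and 79.1%. The lines overlapped in both regions, and differed in the mean by 0.847 points (SE 2.42, adjusted p = 1 by limma) and -1.71 points (SE 2.70, adjusted p = 0.988 by limma). With 12 CpGs, the region upstream of EPlOSAG00000034515 (chr4:31166317-31166362) had a difference of 7.25 points (SE 7.37, adjusted p = 0.916 by limma). Among regions with at least 5 CpGs, the closest were chr1:16076409-16076423, without a gene, and chr3:27508358-27508437, upstream of OS03G0689300, both at 0% in every T4 library. The unannotated region chr3:25816256-25816307 followed, with 88.6%, 93.4% and 90.5% in SDWT and 95.2%, 82.5% and 95.5% in the line pOsNAR2.1-OsNAR2.1.

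The CpH regions were partly methylated in SDWT. Upstream of OS06G0527500 (chr6:19571370-19571485), with 11 cytosines listed, SDWT had 37.1%, 16.3% and 29.3%, pOsNAR2.1-OsNAR2.1 11.1%, 9.69% and 12.1%, and WYJ7 0%, 0% and 6.13%. SDWT was above the transgenic line in every library and both were above WYJ7, with a difference of -16.6 points (SE 5.77, adjusted p = 0.438 by limma). The other region (chr1:22613279-22613286) had 20.8%, 0% and 15.4% in SDWT and 0% in all libraries of pOsNAR2.1-OsNAR2.1 and WYJ7.

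In the shared regions the median SD of 3 libraries was 12.4 points in WYJ7, 5.23 in SDWT and 4.84 in the line pOsNAR2.1-OsNAR2.1. Over the whole lists the values lay closer together, with 8.58 points in WYJ7 and 8.03 in SDWT in the SDWT list, and 7.24 in WYJ7 and 7.15 in pOsNAR2.1-OsNAR2.1 in the list of the latter. The gap in spread was thus wider in the regions found in both lists. The calls of both lists used these same levels, so the choice of the regions can itself favour steady levels in the lines. Its part in the gap was not tested. In the shared regions the median absolute difference between a pair of libraries was 11.6 to 15.7 points within WYJ7, 4.95 to 5.46 within SDWT and 4.78 to 5.46 within pOsNAR2.1-OsNAR2.1. Between SDWT and pOsNAR2.1-OsNAR2.1 libraries it was 9.47 to 10.9 points. Both lines were also often near an end of the scale. SDWT was at most 5% or at least 80% in all libraries in 118 shared regions (42.8%, against 24.6% of its whole list), pOsNAR2.1-OsNAR2.1 in 122 (44.2%, against 26.9%) and WYJ7 in 15 (5.43%, against 23.8% and 23.2%). The WYJ7 mean lay between 20% and 80% in 198 shared regions (71.7%), against 54.8% of the SDWT list and 57.3% of the pOsNAR2.1-OsNAR2.1 list. A level near 0% or 100% leaves less room for spread, and the part of this in the smaller SD was not tested.

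CK was regenerated from WYJ7 callus without transformation, and 63 of the shared regions were also in the CK list. The share of each whole list that is also in the CK list was not counted. CK plants were T0, came from independent calli and were moved from root medium to water. Generation and growth therefore cannot be told apart from the lack of transformation. Of the 52 regions lower in both T4 lines, 19 were listed for CK, and each CK library was at 0% in 18 of them. Of the 153 regions higher in both lines, 31 were listed, with a median CK level of 78.5%. The CK mean was above WYJ7 in 25 of these and below it in 6, and each CK library was at 0% in 2. Of the 63 regions of opposite direction, 12 were listed for CK, 10 of them with SDWT lower. CK was at 0% in all libraries in 6 of these 12, among them the regions of OS01G0868000 and OS09G0279400 described above. Upstream of EPlOSAG00000038764 CK was instead at 98.4%, 84.3% and 94.7%, near pOsNAR2.1-OsNAR2.1 and far above SDWT. The CK list was called against the same WYJ7 libraries, and CK levels in the other shared regions were not analysed here. How often CK was at 0%, or above or below WYJ7, over its whole list was not counted. The CK counts given here therefore have no background.

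The shared regions were spread over all chromosomes and annotation labels. The files placed 131 of them (47.5%) upstream of a gene, 10 (3.62%) in exons and 8 (2.90%) in introns, and gave no gene for 127 (46.0%). In the whole lists 6.59% (SDWT) and 8.48% (pOsNAR2.1-OsNAR2.1) were in introns. The 149 annotated regions belonged to 148 genes. Chromosome 10 held 31 shared regions (11.2%, against 6.37% and 6.39% of the lists) and chromosome 8 held 30 (10.9%, against 7.29% and 7.77%), whereas chromosome 1 held 22 (7.97%, against 12.1% and 12.5%). These shares are descriptions with no test, since neighbouring regions are not independent.

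**Figure D5:**
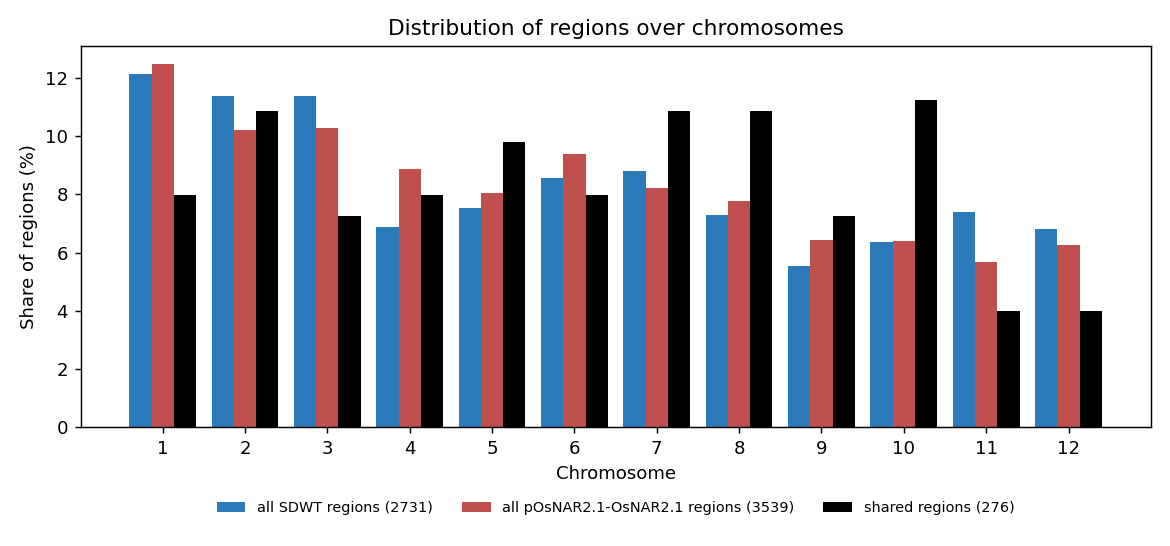
Share of regions (%) on each rice chromosome in the SDWT list (blue, 2731 regions), the pOsNAR2.1-OsNAR2.1 list (red, 3539 regions) and the 276 shared regions (black). The shared regions reach 11.2% on chromosome 10, above both lists, and 7.97% on chromosome 1, below both.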

How the data were processed

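Per the labels and the study's methods, WGBS reads were mapped by the authors to IRGSP-1.0 with Bismark 0.9.0, uniquely mapped reads were kept, cytosines of low depth were removed, and DMRs of each line against 3 WYJ7 libraries were called in methylKit and eDMR. Levels in the deposited lists are in percent per library, calculated by the authors as the mean over the cytosines of a region, not normalized between libraries. Only called regions are listed, so depth per region and uncalled regions are unknown and no counting error could be given. The study reports fewer uniquely mapped reads for each pOsNAR2.1-OsNAR2.1 library than for any SDWT library. The part of this in the differences between the lines was not tested. The lists also hold the authors' difference, p-value, q-value, number of differentially methylated cytosines and direction label, which were not used. Direction was taken from mean levels, with a minimum of 5 points from the WYJ7 mean in both lines that was set after the data had been seen.

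Shared regions had identical chromosome, start, end and context. Levels of SDWT and pOsNAR2.1-OsNAR2.1 (3 libraries each) in the 205 regions of the same direction were compared with limma 3.58.1 (R 4.3.3), two-sided, without covariates, with Benjamini-Hochberg adjustment at 0.05. The test was tested on simulated data, in which 40 of 205 regions were shifted by 40 points. It recovered 99% of these, with a mean of 2.9 false calls over 20 runs. Only regions of small spread between libraries were shifted, so the recovery of smaller differences or at larger spread is unknown. The share of shifted regions also eases the Benjamini-Hochberg threshold. In the data only 2 of the 205 regions differed by at least 40 points. The recovery therefore does not give the power of the direct comparison, in which 0 regions were called. Tables were handled in pandas 2.3.3 and numpy 2.4.6 (Python 3.11.15), and plots were drawn with matplotlib 3.10.9. Alternatives were other overlap rules, stricter thresholds, another scale, trend and robust variance, other regions or libraries in the fit, a replicate block, and each library left out. Regions named were the 8 of the same direction with the smallest p, the 5 farthest from WYJ7 in both lines for each direction, the 8 of opposite direction with the largest difference, the 5 with the most CpGs and the 3 closest with at least 5 CpGs. Those in gene bodies, those with SDWT higher, neighbours, CpH regions and regions at the limit of a class were chosen after their values were seen. The regions and gene lists were chosen with earlier results of these data known. No sequence is shown because no genome was used here. Gene IDs are as the files give them, and 0 of the 78 distinct OS IDs matched the RefSeq gene table. MeDIP-seq samples were not used here.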

Additional observations from a re-analysis of the deposited data

Results flagged for a closer look

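In 35 of the 63 regions of opposite direction, every SDWT library lay on one side of all WYJ7 libraries and every pOsNAR2.1-OsNAR2.1 library on the other. These effects against the same control thus had opposite signs in every library. Both lines lay clear of all WYJ7 libraries in 128 of the 205 regions of the same direction and in 163 of all 276. Being clear of WYJ7 was thus not particular to the regions of opposite direction. The choice of the regions fixes the difference between the lines, so it was not tested as a result. Calls of such regions in the fit over all shared regions carry no independent support. Of the 8 regions with the largest difference, 7 were of this kind, with pOsNAR2.1-OsNAR2.1 minus SDWT at 95.7 points (chr7:15285420-15285438), 90.1 points (upstream of OS10G0562000), 88.1 points (upstream of EPlOSAG00000000173), 87.4 points (upstream of OS01G0868000), 85.8 points (upstream of EPlOSAG00000038764), 85.3 points (chr8:7624796-7624809) and 85.0 points (upstream of EPlOSAG00000039013). The region upstream of EPlOSAG00000044296, with 96.4 points, was not among them because 1 WYJ7 library was at 0%, the SDWT level. Groups of 3 libraries are too small for a search for libraries that stand apart.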

How the results depend on the processing

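The count of shared regions was 276, and became 434 with any overlap of at least 1 bp, 45 with at least 5 CpGs and 28 with at least 40 points from WYJ7 in both lines. With a reciprocal overlap of 50% it was 343. Opposite directions were found in 63 regions, in 14 with at least 5 CpGs and in 61 to 64 when a library was left out. In those 14 the libraries of the lines did not overlap and the absolute difference was 25.2 to 81.6 points. By mean level 185 regions were at least 20 points from WYJ7 in both lines (158 to 187 with a library left out). The calls in the direct comparison, 0 of 205, became 66 with all shared regions in the fit (58 of them of opposite direction, fixed by the choice), 2 with WYJ7 in the fit (chr2:26655053-26655070 and chr10:5288388-5288408) and 0 to 2 with a library left out. Without pOsNAR2.1-OsNAR2.1 replicate 2 the call was chr4:462629-462642 (11.6 points), and without SDWT replicate 3 the calls were chr4:5855890-5855918 (15.4 points) and chr4:24257607-24257623 (52.3 points). The cause was not tested. The calls stayed at 0 on the arcsine scale, with trend and robust variance, with at least 5 CpGs, without regions at 0% in all T4 libraries, without the minimum of 5 points and at an FDR of 0.01. The smallest adjusted p (limma) was 0.263 in the direct comparison. It was 0.0504 with at least 5 CpGs (31 regions tested) and 0.0935 on the arcsine scale. Without regions at 0% it was 0.102, without the minimum 0.223, and with trend and robust variance 0.331.

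The median difference in regions higher in both lines, 3.69 points, was 2.78 to 4.38 with a library left out. In regions lower in both lines it was 0 points, -1.66 with at least 5 CpGs and -0.443 as a mean weighted by width. The median SD of WYJ7, 12.4 points, was 8.19 without WYJ7 replicate 1 and at most 11.1 with another library left out, while with a library left out SDWT had 3.50 to 3.86 and pOsNAR2.1-OsNAR2.1 3.38 to 3.86. With the replicate number as a block limma called 0 regions. Same-numbered libraries of the lines did not deviate together in every pair (correlations 0.0186, 0.183 and -0.0188 over 205 regions), so the numbers were not taken as pairs. The difference from the authors' deposited differences was not run, since it needs their comparison values. Depth per region is unknown, and most levels rest on 3 or 4 cytosines.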

Other observations

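None of the 24 gene IDs of the lists for nitrogen uptake and assimilation (17) and for DNA methylation and demethylation (7) was annotated to a shared region, so 0 regions were tested for them. The shared regions were annotated to only 148 genes, and the share of the 24 IDs in the whole lists was not counted. The 0 therefore says little about these groups of genes. The pairing of the 24 IDs with gene names was not checked against a table.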
